A study of Rattus norvegicus with 12 samples.

Results

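The genes described here are 41 that copy DNA or supply its building blocks: 12 of the replicative helicase and its assembly, 5 of origin licensing, 6 of the sliding clamp and its loader, 8 of the DNA polymerases and primase, 2 of flap removal and ligation, 3 of the single-strand binding complex and 5 of deoxynucleotide supply. They were taken by symbol from the 35966 rows of a table of gene expression, in which each of the 41 had 1 row. The values come from RNA-seq of H9c2(2-1), a rat line from embryonic heart whose genotype the labels give as WT, in 12 libraries of 4 groups. GD cells were deprived of glucose for 36 h. The next 2 groups had the same 36 h of deprivation together with empagliflozin, an inhibitor of the renal glucose transporter SGLT2, at 100 µM or at 200 µM. Control cells were kept in high-glucose DMEM with 10% fetal bovine serum. Each group has 3 libraries. The labels state neither the serum of the deprived groups nor a solvent for the drug, so a difference in serum, if there was one, cannot be told apart from that in glucose. Nor do they tell if the 3 libraries come from 3 cultures or from 1, and p-values therefore measure the spread between these libraries, which may be technical.

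A cell copies its genome once per division, in S phase. Origin recognition proteins with Cdc6 and Cdt1 load the MCM ring onto DNA before S phase, Cdc45 and GINS turn it into a running helicase, primase and polymerase alpha start each strand, and polymerases delta and epsilon extend it on the clamp PCNA. Many of these genes are transcribed late in G1 by E2F factors, which the retinoblastoma family of pocket proteins holds in check, so cells that leave the cycle are known to carry little of their mRNA. Deoxynucleotides come from ribonucleotide reductase, from thymidylate synthase and, by salvage, from thymidine kinase.

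All values are transcripts per 1000000 (TPM), a level that is already divided by transcript length, so levels of different genes can be set side by side. TPM keeps no record of read numbers, so the depth behind a value is unknown. A log2 fold change is the difference of mean log2(TPM + 1) between groups with its standard error (SE), which understates changes of genes with low levels, and a gene passed at a limma adjusted p under 0.05 over 12314 genes tested. Ribosomal protein genes held 32.5% to 35.8% of all TPM in GD libraries, 33.3% to 36.4% at 100 µM, 31.3% to 33.0% at 200 µM and 17.0% to 17.5% in control libraries. GD against control, the median over all genes tested was -0.65 on the log2 scale, and a median-of-ratios scaling that sets this median near 0 is given beside the results. Gene overlaps named here are RefSeq's, and with the strand of counting not given, reads of overlapping genes cannot be told apart. The labelled cell type, myocardial cell, was checked with 14 cardiac markers: Ryr2 and Tbx5 were listed at 0 in all 12 libraries, and Myh6, Myh7, Actn2, Nkx2-5, Nppa and Nppb stayed under 1 TPM in every library. The summed level of these 14 was 78.9 to 91.6 TPM in GD libraries, 64.3 to 82.2 TPM at 100 µM, 102.5 to 132.8 TPM at 200 µM and 525 to 552 TPM in control libraries, carried by Tnnt2, Tnnc1 and Hand2. Summed skeletal muscle markers (10 genes, with Myf5, Myf6, Ckm and Myh3 under 1 TPM in every library) read 28.5 to 31.9 TPM in GD, 21.9 to 28.6 TPM at 100 µM, 31.5 to 41.4 TPM at 200 µM and 276 to 281 TPM in control. Summed fibroblast markers (6 of 7 genes with 1 row; Tcf21 listed at 0 in all groups) read 511 to 883 TPM in GD, 537 to 1004 TPM at 100 µM, 1445 to 1783 TPM at 200 µM and 9308 to 10490 TPM in control. Col1a1 (mean 8964 TPM in control) and Thy1 (1015 TPM) carried this sum. Pdgfra and Lum were low and had lower means in GD than in control. Dcn averaged 0.06 TPM in GD and 0.067 TPM in control, and more at 100 µM (0.19 TPM) and 200 µM (0.40 TPM). Endothelial and leukocyte markers summed to at most 3.5 and 2.2 TPM in any library. Whether the fall of the summed muscle and fibroblast markers has a part in the results below was not tested.

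The replication genes made up a far smaller share of TPM in deprived than in control libraries. The summed level of the 41 genes was 323 to 377 TPM in GD libraries, 331 to 343 TPM at 100 µM, 364 to 378 TPM at 200 µM and 1092 to 1146 TPM in control libraries, so the means of the deprived groups were 31.5%, 30.3% and 33.2% of the control mean. Pcna alone made up a large part of what was left, and without it the means were 26.7%, 25.7% and 28.6% of control. The sums are of TPM as deposited, without median-of-ratios scaling. That scaling divides by factors of 1.41 to 1.47 in control and 0.74 to 0.99 in deprived libraries, so scaled sums lie closer together. Of the 41 genes, 38 fell and 1 rose in GD cells against control, beside 67.6% of all tested genes that were lower and 14% that were higher. The median log2 fold change of the 41 was -1.70, against -0.65 over all tested genes. Scaled by median of ratios, 34 were still lower and 3 higher, beside 38.7% of all tested genes lower and 38% higher, and the median of the 41 was -1.03. All 41 passed the filter of 1 TPM in 3 libraries, but Mcm5, Mcm10, Cdc45, Cdc6, Pole and Pole2 reached it in fewer than 3 libraries outside control and had to differ. Of the other 35, 32 fell and 1 rose, and with scaling 28 were lower and 3 higher. Both medians of the 41 include the genes that had to differ. At 100 µM 38 of the 41 fell against control, beside 66.6% of all tested genes lower, and at 200 µM 36 fell, beside 62.8%. Without the genes that had to differ, 32 of 35 fell at 100 µM and 30 of 35 at 200 µM. These 3 comparisons share the control libraries. Fewer cycling cells and less RNA of these genes per cell cannot be told apart in bulk RNA. The proliferation markers Mki67 and Top2a moved the same way, with Mki67 at 0.51 to 0.98 TPM in GD libraries against 25.3 to 27.7 TPM in control libraries, and Top2a at 0.39 to 0.46 TPM against 17.0 to 18.7 TPM.

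**Figure D1:**
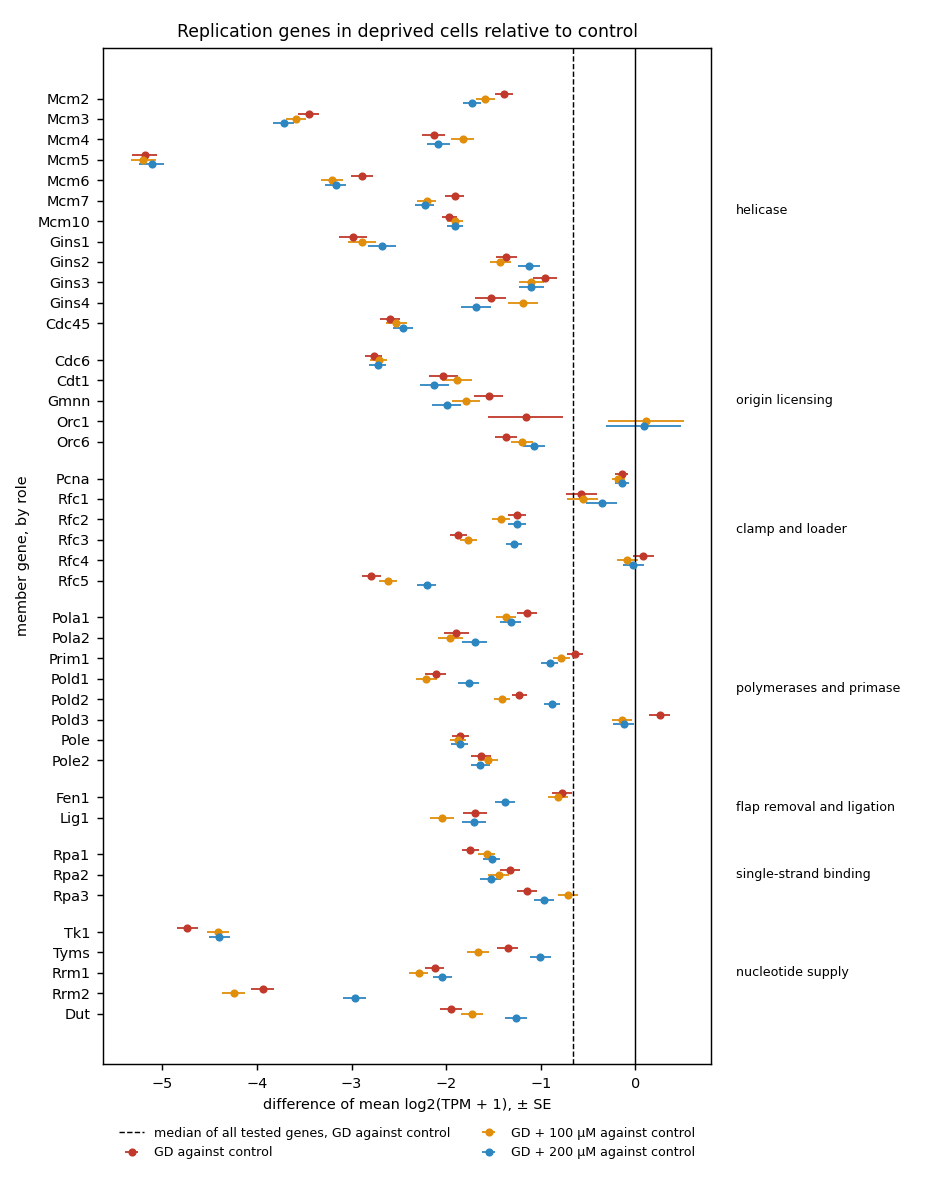
Log2 fold change against control (difference of mean log2(TPM + 1), x axis, bars ± SE, n = 3 libraries per group) of each of the 41 genes, in rows by role, for GD (red), GD + 100 µM (orange) and GD + 200 µM (blue). Most points lie left of the dashed line at -0.65, the median of all tested genes, with Mcm5 lowest at -5.19 and Pcna, Rfc4 and Pold3 near 0.

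Promoter sequence is shown for genes at both ends of this range: Mcm5 and Tk1 with the largest falls, Tyms and Mcm6 from between, and Pcna, which did not pass. RefSeq promoters on the build GRCr8 were matched by symbol for 35 of the 41 genes, and Mcm4, Gins4, Cdc6, Orc1, Rpa3 and Rrm2 had no entry. Each line gives the 250 bases before the start site, 5′ to 3′ on the gene's strand, with E2F-type motifs (TTTCGCGC, TTTGGCGC, TTTCCCGC or TTTGCCGC, either strand) and CCAAT boxes (CCAAT, either strand) in capitals.
Mcm5, chr19:13488563-13488812, plus strand: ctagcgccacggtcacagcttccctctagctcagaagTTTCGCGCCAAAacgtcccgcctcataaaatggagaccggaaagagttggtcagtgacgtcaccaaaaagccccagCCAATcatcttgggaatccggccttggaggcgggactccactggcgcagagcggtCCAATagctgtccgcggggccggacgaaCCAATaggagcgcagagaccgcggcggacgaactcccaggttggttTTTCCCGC
Mcm6, chr13:42404353-42404602, minus strand: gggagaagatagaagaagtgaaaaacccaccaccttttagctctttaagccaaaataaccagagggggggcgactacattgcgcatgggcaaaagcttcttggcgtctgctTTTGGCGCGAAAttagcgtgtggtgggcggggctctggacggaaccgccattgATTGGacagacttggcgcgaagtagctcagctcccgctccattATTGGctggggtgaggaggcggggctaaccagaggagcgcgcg
Tyms, chr9:120776084-120776333, minus strand: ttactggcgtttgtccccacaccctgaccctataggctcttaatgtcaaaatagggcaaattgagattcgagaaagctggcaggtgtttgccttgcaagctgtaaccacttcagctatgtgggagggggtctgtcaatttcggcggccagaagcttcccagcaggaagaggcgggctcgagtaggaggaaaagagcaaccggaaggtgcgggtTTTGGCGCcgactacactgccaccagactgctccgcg
Tk1, chr10:103544778-103545027, minus strand: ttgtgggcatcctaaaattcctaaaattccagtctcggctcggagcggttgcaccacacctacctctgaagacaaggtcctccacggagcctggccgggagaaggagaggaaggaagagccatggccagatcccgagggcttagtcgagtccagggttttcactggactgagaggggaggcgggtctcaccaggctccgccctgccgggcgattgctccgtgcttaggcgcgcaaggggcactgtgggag
Pcna, chr3:139955821-139956070, minus strand: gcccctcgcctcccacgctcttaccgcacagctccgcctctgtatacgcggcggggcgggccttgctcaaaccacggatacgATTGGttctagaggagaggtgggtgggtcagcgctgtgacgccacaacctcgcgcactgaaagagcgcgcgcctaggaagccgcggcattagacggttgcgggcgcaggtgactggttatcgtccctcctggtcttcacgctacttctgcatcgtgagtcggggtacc
The Mcm5 promoter holds 3 E2F-type matches and 3 CCAAT boxes, of which 2 E2F-type matches overlap on opposite strands. The Mcm6 promoter holds 2 overlapping E2F-type matches and 2 CCAAT boxes, Tyms holds 1 E2F-type match, Pcna holds 1 CCAAT box, and Tk1 holds neither motif in this window. In the window of 250 bases before to 50 after the start, 17 of the 35 genes (48.6%) had an E2F-type match, against 2.14% of the 33469 RefSeq promoters, and 22 (62.9%) had a CCAAT box, against 37.5%. In the 250 bases before the start alone, these were 8 genes (22.9%) against 1.73% and 20 genes (57.1%) against 34%. The motif TTTGAA, a cell-cycle element known as CHR, stood in 4 of the 35 (11.4%) against 18.3% of all promoters in the longer window. In the longer window, the median log2 fold change of GD against control was -1.70 over the 17 genes with an E2F-type match and -1.56 over the 18 without one. In the 250 bases alone the order was the other way, at -1.65 over the 8 genes with a match and -1.70 over the 27 without. In either window both sets hold genes that had to differ, such as Mcm5 with a match and Mcm10 without. Matches of letters are a description and do not show binding.

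Every one of the 12 helicase genes fell in GD cells, with log2 fold changes of -5.19 to -0.96. All 12 were lower with median-of-ratios scaling too. Over all tested genes 67.6% were lower, and 38.7% with scaling, shares to be set beside the counts of the other roles as well. Mcm5, Mcm10 and Cdc45 passed the filter through control and had to differ. Mcm5, a subunit of the MCM ring, read 0.79, 0.56 and 0.80 TPM in GD libraries, 0.85, 0.51 and 0.75 TPM at 100 µM, 0.88, 0.49 and 1.1 TPM at 200 µM and 62.8, 61.8 and 59.8 TPM in control libraries. Every deprived library lay under every control library, and the GD mean was 1.17% of the control mean (-5.19 ± 0.13 SE). Since Mcm5 had to differ, no adjusted p is given. Mcm2, another subunit of the same ring, read 15.9, 16.3 and 14.6 TPM in GD libraries, 12.2, 14.2 and 14.2 TPM at 100 µM, 11.5, 14 and 11.1 TPM at 200 µM and 41.6, 43 and 42.8 TPM in control libraries. It too was lower in each deprived library than in each control library, yet the GD mean kept 36.7% of control (-1.39 ± 0.10 SE, adjusted p = 2.13e-08). Mcm7 read 9.91, 9.86 and 8.18 TPM in GD libraries, 8.08, 6.95 and 7.18 TPM at 100 µM, 7.69, 7.48 and 6.68 TPM at 200 µM and 39.1, 38.7 and 35.3 TPM in control libraries. Its groups did not overlap with control either (-1.91 ± 0.10 SE, adjusted p = 1.50e-09). The ring's other subunits lay between Mcm5 and Mcm2: Mcm3 averaged 1.4 ± 0.228 TPM in GD and 25.3 ± 0.969 TPM in control cells (SD, n = 3 each), a log2 fold change of -3.46. Mcm6 averaged 4.32 ± 0.543 TPM in GD and 38.3 ± 1.09 TPM in control (-2.89), and Mcm4 averaged 3.21 ± 0.69 TPM and 17.3 ± 0.369 TPM (-2.13).

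The balance of the 6 subunits differed in deprived cells, as a description of the means. Mcm5 had the highest mean level of the 6 in control cells and the lowest in each deprived group. The highest mean over the lowest was 21.7 in GD (Mcm2 over Mcm5), 19.2 at 100 µM, 14.8 at 200 µM and 3.57 in control (Mcm5 over Mcm4). Taken library by library, this ratio was 18.2 to 29.0 in GD, 14.3 to 27.8 at 100 µM, 10.05 to 28.5 at 200 µM and 3.55 to 3.59 in control. The deprived groups thus overlapped, and Mcm5, the divisor, stood at only 0.49 to 1.1 TPM in their libraries. These are mRNA levels, and protein was not measured.

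The helicase activators also fell. Cdc45, which joins the ring when origins fire, averaged 0.443 ± 0.0577 TPM in GD and 7.72 ± 0.883 TPM in control (-2.59 ± 0.11 SE). Mcm10, which acts at the same step, averaged 0.0367 ± 0.00577 TPM and 3.05 ± 0.183 TPM (-1.97). Of the GINS complex, Gins1 averaged 0.89 ± 0.144 TPM in GD and 14 ± 1.35 TPM in control (-2.99), and Gins2, which overlaps Gse1 in the RefSeq annotation, averaged 1.05 ± 0.115 TPM and 4.3 ± 0.492 TPM (-1.37). Gins3 had the smallest change of the helicase genes and read 1.81, 1.8 and 1.89 TPM in GD libraries, 1.58, 1.73 and 1.41 TPM at 100 µM, 1.91, 1.58 and 1.26 TPM at 200 µM and 5.27, 3.68 and 4.68 TPM in control libraries. Its groups still did not overlap with control, and the call held with median-of-ratios scaling (-0.96 ± 0.13 SE, adjusted p = 1.19e-05, -0.38 scaled) but not with quantile normalization (-0.065, adjusted p = 0.646). Gins4 read 3.68, 3.01 and 2.13 TPM in GD libraries, 3.46, 4.3 and 4.09 TPM at 100 µM, 2.63, 2.77 and 2.11 TPM at 200 µM and 10.6, 11.9 and 8.46 TPM in control libraries. All deprived libraries lay under all control libraries (-1.53 ± 0.16 SE, adjusted p = 1.12e-06).

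**Figure D2:**
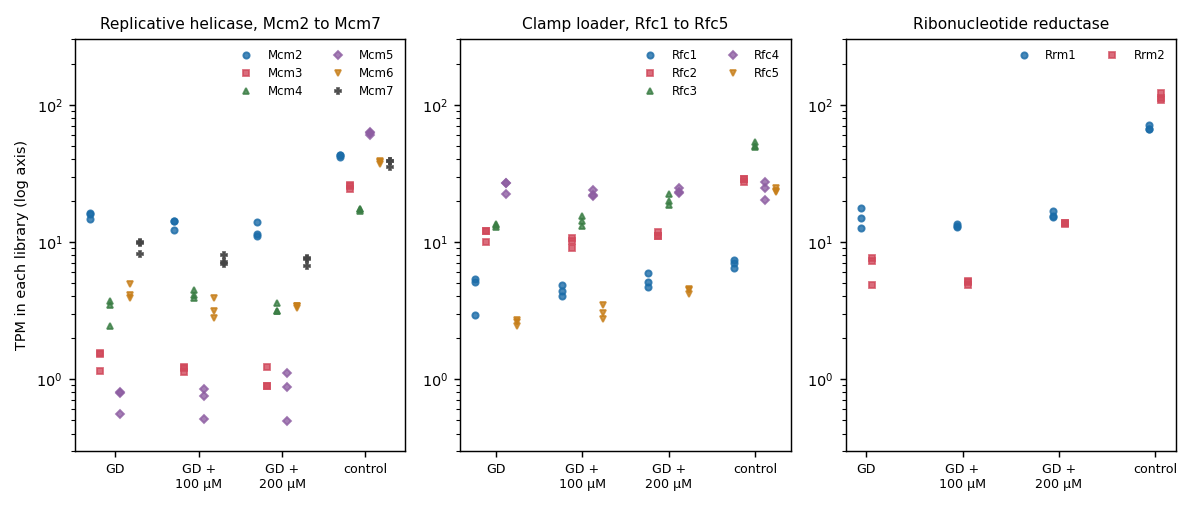
TPM of each library (points, log axis) for the subunits of the MCM ring, of replication factor C and of ribonucleotide reductase in GD, GD + 100 µM, GD + 200 µM and control, 3 libraries each. Mcm5 is the highest MCM subunit in control and the lowest in the deprived groups, and Rrm2 lies above Rrm1 in control alone. Rfc4 keeps its level in all groups in TPM as deposited. With median-of-ratios scaling its log2 fold change against control was 0.82 in GD, 0.62 at 100 µM and 0.52 at 200 µM.

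All 5 licensing genes fell in GD cells, although the call of Orc1 rests on a single library. Cdc6, the loader of the MCM ring, read 0.02, 0.04 and 0.06 TPM in GD libraries, 0.04, 0.14 and 0.06 TPM at 100 µM, 0.04, 0.04 and 0.14 TPM at 200 µM and 5.88, 6.3 and 6.08 TPM in control libraries. The GD mean was 0.657% of control, the smallest share left among the 41 genes (-2.77 ± 0.09 SE). Cdc6 passed the filter through control and had to differ, so no adjusted p is given. Cdt1, its partner in loading, averaged 3.83 ± 0.358 TPM in GD and 18.7 ± 0.345 TPM in control (-2.03). Gmnn, which encodes geminin, the inhibitor of Cdt1, read 6.93, 7.78 and 5.22 TPM in GD libraries, 6.15, 4.8 and 5.33 TPM at 100 µM, 3.81, 5.03 and 4.95 TPM at 200 µM and 17.9, 22.8 and 23.2 TPM in control libraries. Loader and inhibitor were both lower in every deprived library than in any control library (-1.55 ± 0.15 SE, adjusted p = 5.94e-07 for Gmnn). Orc6, of the origin recognition complex, read 5.78, 5.35 and 5.2 TPM in GD libraries, 5.89, 6.53 and 6.36 TPM at 100 µM, 6.95, 7.77 and 6.16 TPM at 200 µM and 18.1, 13.7 and 15.4 TPM in control libraries. It fell likewise (-1.37 ± 0.11 SE, adjusted p = 1.27e-07). Orc1, the largest subunit of that complex, read 0.09, 2.66 and 2.62 TPM in GD libraries, 5.53, 3.21 and 6.41 TPM at 100 µM, 2.94, 6.19 and 5.85 TPM at 200 µM and 5.04, 4.61 and 3.76 TPM in control libraries. GD replicate 1, at 0.09 TPM, stood apart from the 2 other GD libraries, and the drug groups overlapped with control. Against control, Orc1 was lower in GD (-1.16 ± 0.40 SE, adjusted p = 0.0163), but without GD replicate 1 the fold change was -0.58 (adjusted p = 0.0656) and with median-of-ratios scaling it was -0.61 (adjusted p = 0.230).

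The clamp and its loader divided. Pcna, which encodes the sliding clamp that holds polymerases on DNA, read 81.4, 76 and 67.8 TPM in GD libraries, 70.5, 78.1 and 70.7 TPM at 100 µM, 75.5, 76.7 and 73.4 TPM at 200 µM and 84.4, 82.8 and 81.5 TPM in control libraries. Each GD library lay under each control library, but the GD mean kept 90.6% of control and the difference did not pass (-0.15 ± 0.07 SE, adjusted p = 0.0738). Without GD replicate 1 it passed as lower (adjusted p = 0.0226), as it did at 100 µM against control (-0.18 ± 0.07 SE, adjusted p = 0.0313), a call lost without any 1 of 5 of those 6 libraries, all but 100 µM replicate 2 (adjusted p = 0.0510 to 0.0975). The GD value was 0.61 with median-of-ratios scaling (adjusted p = 7.16e-07), a change of direction. Rfc4, a small subunit of replication factor C, the clamp loader, read 27.1, 22.5 and 27.1 TPM in GD libraries, 21.8, 24 and 21.9 TPM at 100 µM, 23.3, 22.7 and 24.8 TPM at 200 µM and 27.5, 24.8 and 20.1 TPM in control libraries. The 4 groups overlapped (0.08 ± 0.11 SE, adjusted p = 0.487), and the scaled value was 0.82 (adjusted p = 9.01e-05). The other loader subunits fell by different amounts. Rfc5 read 2.71, 2.61 and 2.45 TPM in GD libraries, 3.02, 3.44 and 2.74 TPM at 100 µM, 4.43, 4.57 and 4.16 TPM at 200 µM and 23.6, 23.3 and 24.6 TPM in control libraries. Its GD mean was 10.9% of control (-2.79 ± 0.10 SE, adjusted p = 4.86e-11). Rfc3 read 13.4, 12.9 and 13.2 TPM in GD libraries, 13.1, 15.5 and 14.1 TPM at 100 µM, 22.5, 18.7 and 19.9 TPM at 200 µM and 53.7, 49.2 and 49.7 TPM in control libraries. It fell to 25.9% of control in GD (-1.87 ± 0.09 SE, adjusted p = 5.42e-10). Rfc2 averaged 11.3 ± 1.18 TPM in GD and 28.2 ± 0.868 TPM in control (-1.25). Rfc1, the large subunit, read 5.13, 5.33 and 2.93 TPM in GD libraries, 4.02, 4.84 and 4.37 TPM at 100 µM, 5.96, 5.07 and 4.66 TPM at 200 µM and 7.34, 6.49 and 7.0 TPM in control libraries. GD replicate 3 was the lowest of the 12, the GD libraries lay under the control libraries (-0.57 ± 0.16 SE, adjusted p = 0.00580), and the scaled value was of the opposite sign (0.07, adjusted p = 0.625). At 200 µM Rfc1 did not pass against control (-0.35 ± 0.16 SE, adjusted p = 0.0647). Rfc4 over Rfc5, the highest over the lowest subunit mean, was 9.86 in GD, 7.35 at 100 µM and 5.38 at 200 µM, and in control the highest was Rfc3 and the lowest Rfc1, with a ratio of 7.33.

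Among the polymerase genes 7 of 8 fell in GD and Pold3 was higher. Pold1, the catalytic subunit of polymerase delta, read 1.59, 1.79 and 1.39 TPM in GD libraries, 1.22, 1.7 and 1.33 TPM at 100 µM, 2.46, 2.31 and 2.1 TPM at 200 µM and 9.66, 10.8 and 10.0 TPM in control libraries. Every deprived library lay far under any control library (-2.11 ± 0.11 SE, adjusted p = 1.50e-09). Pold2, the accessory subunit next to it, read 20.4, 20.5 and 20.7 TPM in GD libraries, 16.2, 19.8 and 17.9 TPM at 100 µM, 28.7, 25.7 and 24.6 TPM at 200 µM and 47.8, 49.3 and 51 TPM in control libraries. It fell less (-1.23 ± 0.08 SE, adjusted p = 1.75e-08). Pold3, a further subunit of the same enzyme, read 18.5, 17.9 and 14.4 TPM in GD libraries, 12.1, 11.7 and 14 TPM at 100 µM, 11.8, 13.8 and 12.6 TPM at 200 µM and 14.4, 13.5 and 13.9 TPM in control libraries. The GD libraries lay above the control libraries, GD replicate 3 only just, and the drug groups overlapped with them. The rise in GD was small (0.26 ± 0.11 SE, adjusted p = 0.0405) and did not pass when any single control library, GD replicate 1 or GD replicate 2 was left out (adjusted p = 0.0582 to 0.151). With median-of-ratios scaling it was 0.97 (adjusted p = 2.10e-07).

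Of polymerase epsilon, which extends the leading strand, Pole and Pole2 were under 1 TPM in every deprived library, while its small subunits, which are not among the 41, were not: Pole3 averaged 9.81 ± 0.938 TPM in GD and 15.8 ± 0.545 TPM in control (-0.64, 0.07 scaled), and Pole4 averaged 40.5 ± 1.24 TPM and 34 ± 0.315 TPM (0.25, adjusted p = 0.0279). Pole and Pole2 passed the filter through control and had to differ. Pole averaged 0.17 ± 0.0361 TPM in GD and 3.22 ± 0.248 TPM in control, which is 5.27% (-1.85 ± 0.09 SE). Pole2 averaged 0.0767 ± 0.0208 TPM and 2.36 ± 0.44 TPM, which is 3.25% (-1.63), and its locus overlaps Klhdc1, at 17.1 TPM in GD and 11.2 TPM in control. Of polymerase alpha, Pola1 averaged 1.5 ± 0.348 TPM in GD and 4.5 ± 0.114 TPM in control (-1.15), and Pola2 averaged 2.35 ± 0.182 TPM and 11.5 ± 0.385 TPM (-1.9). Prim1, the primase that lays the RNA primer, read 30.0, 26.9 and 22.7 TPM in GD libraries, 24.6, 23 and 23.6 TPM at 100 µM, 21.3, 22 and 21.9 TPM at 200 µM and 42, 42.2 and 40.4 TPM in control libraries. It kept 63.8% of control in GD (-0.64 ± 0.09 SE, adjusted p = 1.75e-05), about the shift of the median gene, and its scaled value was 0.10 (adjusted p = 0.209).

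Flap removal and ligation join the pieces of the lagging strand. Fen1, the flap nuclease, read 12.4, 11.3 and 9.85 TPM in GD libraries, 10.2, 9.89 and 12.5 TPM at 100 µM, 6.68, 7.21 and 7.05 TPM at 200 µM and 19.3, 20.0 and 20.0 TPM in control libraries. The GD and 100 µM libraries overlapped with each other, and the 200 µM libraries lay under both. Against control Fen1 fell in GD (-0.77 ± 0.11 SE, adjusted p = 1.48e-05) but was -0.06 with scaling (adjusted p = 0.550). Its locus overlaps Tmem258, a far more abundant gene at 621 TPM in GD, 737 TPM at 100 µM, 469 TPM at 200 µM and 364 TPM in control. Lig1, the ligase that seals the nick, read 5.87, 6.47 and 4.98 TPM in GD libraries, 3.72, 3.87 and 5.44 TPM at 100 µM, 5.94, 5.65 and 5.53 TPM at 200 µM and 21.1, 20.0 and 21.6 TPM in control libraries. It fell in GD with or without scaling (-1.7 ± 0.13 SE, adjusted p = 4.10e-08, -1.0 scaled). Its locus overlaps Zswim9.

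All 3 subunits of replication protein A, which coats single-stranded DNA, fell. Rpa1, the large subunit, read 7.34, 7.33 and 6.63 TPM in GD libraries, 7.5, 8.25 and 8.65 TPM at 100 µM, 8.7, 8.32 and 8.33 TPM at 200 µM and 25.5, 28.2 and 24.7 TPM in control libraries. All deprived libraries lay far under control (-1.74 ± 0.09 SE, adjusted p = 1.31e-09). Rpa2 averaged 6.51 ± 0.404 TPM in GD and 17.9 ± 2.5 TPM in control (-1.33). Rpa3, the smallest subunit, read 18.2, 13.3 and 14.8 TPM in GD libraries, 22.8, 20.4 and 20.2 TPM at 100 µM, 18.2, 16.1 and 18.3 TPM at 200 µM and 37, 33.2 and 35.1 TPM in control libraries. It was higher in each 100 µM library than in each GD library, and lower in all deprived libraries than in control (-1.14 ± 0.11 SE, adjusted p = 3.29e-07 for GD).

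All 5 nucleotide supply genes fell in GD, with or without scaling. Tk1, the S phase thymidine kinase, read 1.11, 1.14 and 0.75 TPM in GD libraries, 1.23, 1.68 and 1.59 TPM at 100 µM, 1.41, 1.63 and 1.51 TPM at 200 µM and 51.3, 52.7 and 52.3 TPM in control libraries. Its GD mean was 1.92% of control (-4.74 ± 0.11 SE, adjusted p = 3.36e-12). Rrm2, the small subunit of ribonucleotide reductase, whose locus overlaps the little expressed Cys1, read 7.22, 7.63 and 4.89 TPM in GD libraries, 5.09, 5.18 and 4.86 TPM at 100 µM, 13.7, 13.5 and 13.8 TPM at 200 µM and 122, 112 and 108 TPM in control libraries. The 100 µM libraries overlapped with GD, the 200 µM libraries lay above both, and all lay far under control (-3.94 ± 0.12 SE, adjusted p = 2.37e-11 for GD). Rrm1, the large subunit, read 17.6, 15 and 12.6 TPM in GD libraries, 12.9, 13 and 13.6 TPM at 100 µM, 17, 15.4 and 15.3 TPM at 200 µM and 71.1, 67.2 and 66.7 TPM in control libraries. It fell less (-2.12 ± 0.10 SE, adjusted p = 7.06e-10), so that Rrm1 over Rrm2 was 2.29 in GD, 2.61 at 100 µM and 1.16 at 200 µM, while Rrm2 exceeded Rrm1 by 1.67 times in control. Tyms, thymidylate synthase, read 8.04, 8.22 and 6.79 TPM in GD libraries, 5.89, 5.43 and 6.66 TPM at 100 µM, 10.6, 9.01 and 10.5 TPM at 200 µM and 23.2, 18.7 and 21.5 TPM in control libraries. It had the smallest fall of the 5 (-1.35 ± 0.11 SE, adjusted p = 1.42e-07). Dut, which removes dUTP before it can be built into DNA, read 15.8, 13.3 and 12.2 TPM in GD libraries, 15.3, 18.2 and 14.9 TPM at 100 µM, 25.9, 22.3 and 20.0 TPM at 200 µM and 59.5, 54.9 and 52.2 TPM in control libraries. Its deprived groups were ordered GD, 100 µM, 200 µM, with overlap between GD and 100 µM (-1.95 ± 0.12 SE, adjusted p = 5.37e-09 for GD against control).

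A second gene of the same kind is a limit on the level of Rrm2. The deposited table lists LOC100359539, described there as ribonucleotide reductase M2 polypeptide and named Rrm2l1 by RefSeq, at 4.73 ± 0.840 TPM in GD, 5.28 ± 0.374 TPM at 100 µM, 10.2 ± 1.03 TPM at 200 µM and 49.2 ± 2.19 TPM in control (SD, n = 3 each). The sequences were not compared, and how reads were divided between both genes is unknown. Summed over both rows, a choice made after the data were seen, the log2 fold change was -3.74 for GD against control (adjusted p = 1.45e-12), 1.02 for 200 µM against GD (adjusted p = 6.60e-07) and 1.13 for 200 µM against 100 µM (adjusted p = 6.36e-07).

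**Figure D3:**
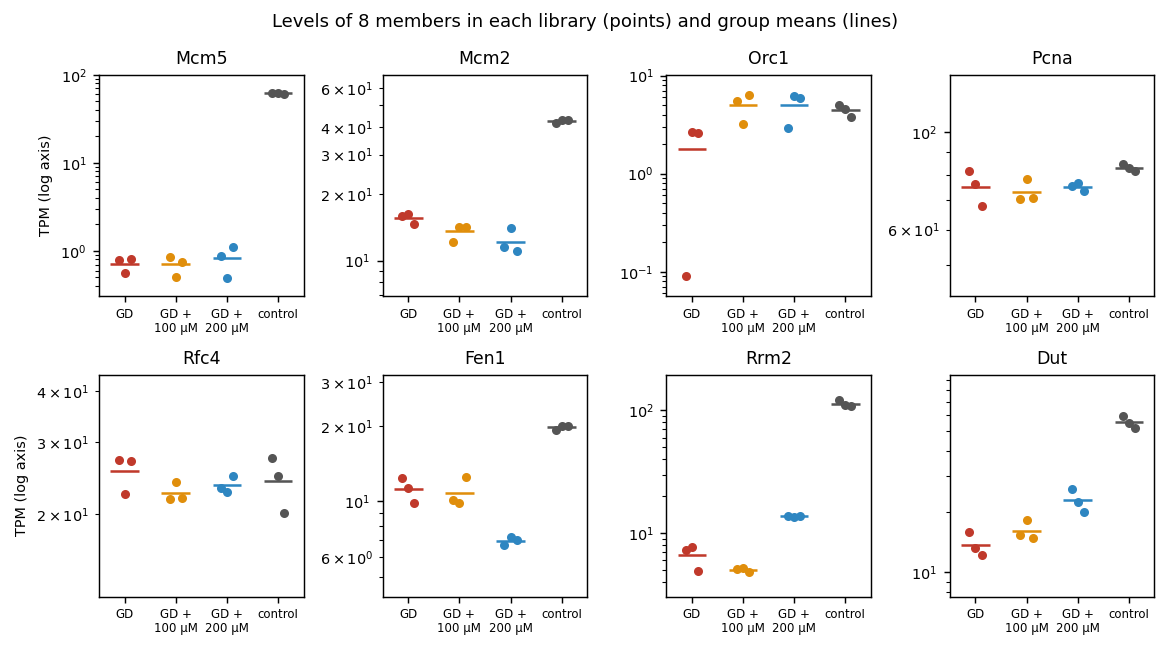
TPM of every library (points, log axis, ranges differ between panels) and group means (lines) of 8 genes in GD, GD + 100 µM, GD + 200 µM and control. Mcm5 falls to about 1 TPM in all deprived groups, Pcna and Rfc4 lie near their control level (0.61 and 0.82 on the log2 scale in GD with median-of-ratios scaling), Orc1 has 1 GD library at 0.09 TPM, Fen1 is lowest and Rrm2 and Dut are highest among the deprived groups at 200 µM.

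With 100 µM, 2 of the replication genes passed the test against GD. Against GD 1 of the 41 was higher and 1 lower, beside 7.51% of all tested genes higher and 5.46% lower, and the median log2 fold change was -0.04, against 0.02 over all tested genes. Rpa3 was the one higher, at 21.1 ± 1.45 TPM against 15.4 ± 2.48 TPM (SD, n = 3 each; 0.44 ± 0.11 SE, adjusted p = 0.0171). Pold3 was the one lower, at 12.6 ± 1.24 TPM against 16.9 ± 2.19 TPM (-0.40 ± 0.11 SE, adjusted p = 0.0293). The groups did not overlap for either gene. Neither call was steady: Rpa3 was lost without GD replicate 2 or 100 µM replicate 1 (adjusted p up to 0.0683), and Pold3 without GD replicate 1 or 2 or 100 µM replicate 1 or 2 (adjusted p up to 0.117). GD replicate 3, with the lowest median TPM of the 12 libraries, weighed on the count, and without it 7 of the 41 were lower and 2 higher. Scaled by median of ratios, 3 were higher and 6 lower, beside 8.1% and 10.4% of all tested genes. Mcm4, Tk1 and Rpa3 were higher then, and Mcm6, Mcm7, Pold3, Lig1, Tyms and Rrm2 lower.

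At 200 µM the genes moved in both directions, and 4 of the 5 deoxynucleotide supply genes were higher, of which Rrm2 and Dut kept that call without any 1 library and Tk1 and Tyms did not. Against GD 10 of the 41 were higher and 6 lower, beside 32% of all tested genes higher and 11.4% lower. Neither share is far from the background, and the median log2 fold change of the 41 was 0.05, against 0.14 over all tested genes. With median-of-ratios scaling the split turned to 5 higher and 11 lower, beside 22.7% and 24% of all tested genes, and the median was -0.02. Higher under both were Rrm2, Dut, Rfc3, Rfc5 and Tk1. Higher without scaling alone were Orc1, Orc6, Pold1, Pold2 and Tyms.

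Rrm2 had the smallest p among the 41, at 13.7 ± 0.143 TPM with 200 µM and 6.58 ± 1.48 TPM in GD (0.97 ± 0.12 SE, adjusted p = 4.05e-05, 0.81 scaled). Even so the 200 µM mean was 12% of control. Rfc3, of the clamp loader, averaged 20.4 ± 1.92 TPM and 13.2 ± 0.287 TPM (0.59 ± 0.09 SE, adjusted p = 1.43e-04), and Rfc5 averaged 4.39 ± 0.208 TPM and 2.59 ± 0.131 TPM (0.59 ± 0.10 SE, adjusted p = 3.55e-04). Their 200 µM libraries all lay above their GD libraries. Dut averaged 22.7 ± 3.0 TPM at 200 µM and 13.7 ± 1.87 TPM in GD, again without overlap (0.69 ± 0.12 SE, adjusted p = 4.35e-04). Tk1 was higher by less, at 1.52 ± 0.11 TPM and 1.0 ± 0.217 TPM (0.34 ± 0.11 SE, adjusted p = 0.0282), and that call was lost without GD replicate 3 and without 200 µM replicate 2 or 3 (adjusted p = 0.0615 to 0.0857). Tyms, at 10.0 ± 0.889 TPM and 7.68 ± 0.779 TPM, passed at 0.35 (adjusted p = 0.0265), with a scaled value of 0.18 (adjusted p = 0.166), and was lost without GD replicate 3 and without 200 µM replicate 1 or 3 (adjusted p = 0.0698 to 0.0906). Rrm1 completes the group and did not pass (0.08 ± 0.10 SE, adjusted p = 0.539).

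Of the remaining genes higher at 200 µM, Pold2 averaged 26.3 ± 2.15 TPM against 20.5 ± 0.131 TPM in GD, without overlap (0.34 ± 0.08 SE, adjusted p = 0.00532), and Pold1 averaged 2.29 ± 0.181 TPM against 1.59 ± 0.20 TPM (0.35 ± 0.11 SE, adjusted p = 0.0226). The Pold1 call was lost without GD replicate 1 and without 200 µM replicate 1 or 2 (adjusted p = 0.0524 to 0.0802). Pold3, of the same polymerase delta, was lower (-0.38 ± 0.11 SE, adjusted p = 0.0117). The calls of Orc1 and Orc6 were lost in the same way. Orc1 differed by 1.25 ± 0.40 SE (adjusted p = 0.0227), by 0.67 (adjusted p = 0.0697) without GD replicate 1, and did not pass without 200 µM replicate 2 or 3 either (adjusted p = 0.0801 and 0.0725). Orc6, at 0.30 (adjusted p = 0.0495), was lost without any library of the 2 groups other than 200 µM replicate 3 (adjusted p = 0.0616 to 0.176).

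The 6 genes lower at 200 µM than in GD were Fen1, Mcm2, Mcm7, Gmnn, Prim1 and Pold3. Fen1 had the largest difference, at 6.98 ± 0.272 TPM against 11.2 ± 1.29 TPM, without overlap (-0.61 ± 0.11 SE, adjusted p = 5.26e-04, -0.78 scaled), and its overlapping neighbour Tmem258 was lower too. Mcm2 averaged 12.2 ± 1.58 TPM at 200 µM and 15.6 ± 0.885 TPM in GD (-0.34 ± 0.10 SE, adjusted p = 0.0131), and Mcm7 averaged 7.28 ± 0.533 TPM and 9.32 ± 0.985 TPM (-0.31 ± 0.10 SE, adjusted p = 0.0225). Neither gene's 200 µM libraries overlapped with its GD libraries. Gmnn averaged 4.6 ± 0.682 TPM and 6.64 ± 1.3 TPM (-0.44 ± 0.15 SE, adjusted p = 0.0317), and Prim1 averaged 21.7 ± 0.406 TPM and 26.5 ± 3.68 TPM (-0.27 ± 0.09 SE, adjusted p = 0.0276). Fen1 passed without any 1 library, and the others did not (adjusted p up to 0.131). Mcm2 was lost without 200 µM replicate 1 or 3, Mcm7 without GD replicate 1 or 2 or 200 µM replicate 3, and Gmnn without GD replicate 1 or 2 or 200 µM replicate 1. Pold3 was lost without GD replicate 1 or 200 µM replicate 1, and Prim1 without any library of both groups other than GD replicate 3. With scaling Mcm3, Mcm6, Pcna, Pola1 and Rpa2 were lower as well.

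**Figure D4:**
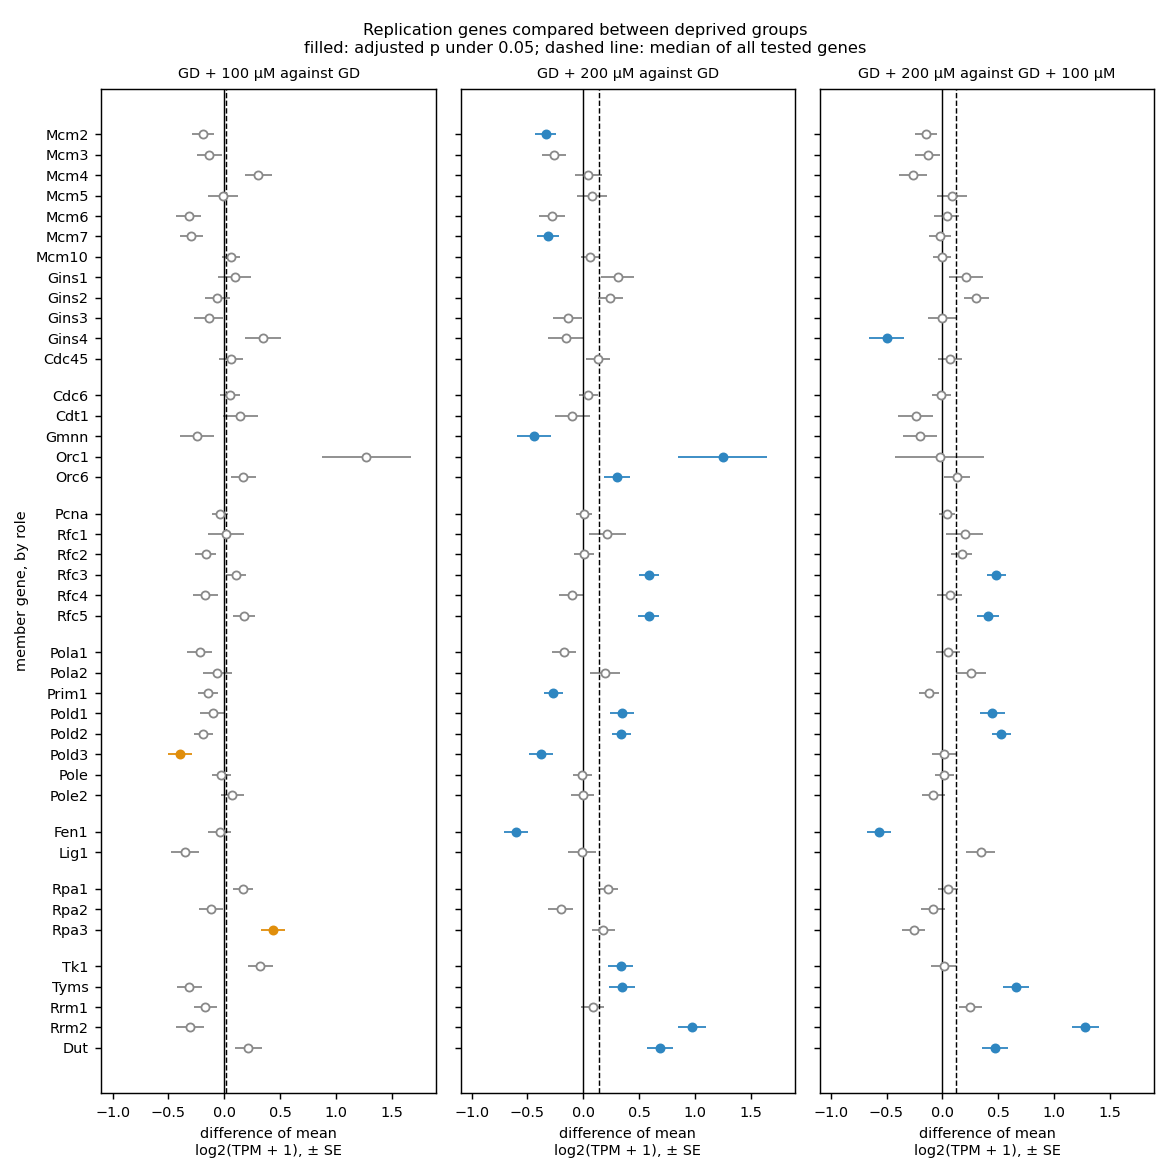
Log2 fold change (difference of mean log2(TPM + 1), x axis, bars ± SE, n = 3 libraries per group) of the 41 genes for GD + 100 µM against GD, GD + 200 µM against GD and GD + 200 µM against GD + 100 µM. Filled points passed an adjusted p under 0.05 and dashed lines mark the median of all tested genes. Filled points number 2, 16 and 9, with Rrm2 at 0.97 and 1.28 in the panels of 200 µM.

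The doses were also compared directly, since a difference from GD at one dose alone does not show that doses differ. At 200 µM against 100 µM 7 of the 41 were higher and 2 lower, beside 25.7% of all tested genes higher and 8.06% lower, with a median of 0.04 against 0.12 over all tested genes. Scaling gave 7 higher and 6 lower, beside 18.6% and 18.5% of all tested genes, and the 7 were the same genes: Rrm2, Pold2, Tyms, Rfc3, Rfc5, Pold1 and Dut. Rrm2 averaged 13.7 ± 0.143 TPM at 200 µM and 5.04 ± 0.165 TPM at 100 µM (1.28 ± 0.12 SE, adjusted p = 8.90e-06). Pold2 averaged 26.3 ± 2.15 TPM and 18 ± 1.79 TPM (0.53 ± 0.08 SE, adjusted p = 4.12e-04). Tyms averaged 10.0 ± 0.889 TPM and 5.99 ± 0.621 TPM (0.66 ± 0.11 SE, adjusted p = 7.76e-04). None of the 3 genes had overlapping libraries between the doses. Rfc3 differed by 0.48 ± 0.09 SE (adjusted p = 9.82e-04), Rfc5 by 0.41 ± 0.10 SE, Pold1 by 0.45 ± 0.11 SE and Dut by 0.47 ± 0.12 SE. Fen1 was lower at 200 µM, at 6.98 ± 0.272 TPM against 10.9 ± 1.44 TPM (-0.56 ± 0.11 SE, adjusted p = 0.00134). Gins4 was lower too (-0.50 ± 0.16 SE, adjusted p = 0.0287), a call lost without 100 µM replicate 2 or 3 or 200 µM replicate 1 or 3 (adjusted p up to 0.105). Tk1 did not pass between the doses (0.01 ± 0.11 SE, adjusted p = 0.945).

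Further genes of DNA replication and of its control were taken from lists, and their counts are to be read against the shares over all tested genes, 67.6% lower and 14% higher in GD against control (38.7% and 38% with scaling), and 32% higher and 11.4% lower with 200 µM against GD (22.7% and 24%). Of 32 tested replication factors beyond the 41 (35 listed), 23 fell and 4 rose against control, with a median log2 fold change of -0.98 against -0.65 over all tested genes, and with scaling 18 were lower and 12 higher. The share lower is near that of all tested genes. Mcm8, Timeless, Clspn, Wdhd1, Chtf18, Dscc1, Cdc7, Ticrr, Recql4 and Exo1 are among those that fell. They reached 1 TPM in fewer than 3 libraries outside control and had to differ. Such genes were not set apart in the counts of this list or of those below. The lowest were Rnaseh2c, a subunit of the RNase H2 that clears RNA from DNA, at -2.69 (adjusted p = 2.81e-10), and Dscc1 at -2.12. Dscc1, of an alternative clamp loader, was under 1 TPM in every deprived library. The highest were Polg2 at 0.47 (adjusted p = 0.00395) and Ssbp1 at 0.37 (adjusted p = 0.00412), both of mitochondrial DNA replication. With 200 µM, 4 of these 32 were higher than in GD, a smaller share than the 32% of all tested genes, and 1 was lower (2 higher and 8 lower with scaling). Rnaseh2c averaged 20.2 ± 3.74 TPM at 200 µM and 6.67 ± 0.0577 TPM in GD, a log2 fold change of 1.45 (adjusted p = 1.04e-06).

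Most E2F, pocket protein and associated genes fell in GD, as did most tested genes, while Rb1 and Lin37 rose. Of these 19 genes, 15 fell and 2 rose in GD against control, beside 67.6% lower and 14% higher over all tested genes. Their median was -1.19, against -0.65 over all tested genes. With scaling 12 were lower and 6 higher, beside 38.7% and 38%. Mybl2, a cell-cycle transcription factor, averaged 0.703 ± 0.0651 TPM in GD and 17.5 ± 0.676 TPM in control (-3.44), and Foxm1, which drives G2 genes, averaged 0.883 ± 0.0907 TPM and 9.77 ± 0.433 TPM (-2.52). Rb1, the retinoblastoma gene that restrains E2F, rose to 13.3 ± 2.93 TPM in GD, against 5.78 ± 0.127 TPM in control (1.06, adjusted p = 9.67e-06), and Lin37, of the complex that represses cell-cycle genes in resting cells, rose by 0.26 (adjusted p = 0.00681). With 200 µM, 5 of the 19 were higher than in GD and 2 lower, near the 32% and 11.4% of all tested genes (2 higher and 4 lower with scaling), and Rb1 was one of those lower, at 8.39 ± 0.948 TPM against 13.3 ± 2.93 TPM (-0.59, adjusted p = 0.00390).

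Of 14 genes of the S phase checkpoint and of licensing turnover, 10 fell and 1 rose in GD, with a median of -0.81, near the 67.6% lower and the median of -0.65 over all tested genes, and with scaling 7 were lower and 4 higher. Dtl, which marks Cdt1 for destruction in S phase, fell most (-2.21), followed by Ddb1 of the same ubiquitin ligase (-1.81), at 97.3 ± 9.78 TPM in GD and 343 ± 4.97 TPM in control. Rad17, which loads the checkpoint clamp, rose (0.36, adjusted p = 0.00145), and Rad1, of that clamp, was next highest and did not pass (0.25, adjusted p = 0.0940). With 200 µM, 3 of the 14 (Hus1, Cul4a and Ddb1) were higher than in GD and 0 lower, beside 32% and 11.4% of all tested genes. With scaling 2 were higher and 4 lower, beside 22.7% and 24%.

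Of 20 other tested genes of pyrimidine and deoxynucleotide supply (22 listed), 16 fell and 1 rose in GD, with a median of -1.23. Over all tested genes 67.6% were lower and 14% higher, with a median of -0.65. With scaling 12 of the 20 were lower and 5 higher, beside 38.7% and 38%. Slc29a1, a nucleoside transporter, averaged 3.03 ± 0.436 TPM in GD and 21 ± 2.74 TPM in control (-2.44). The highest were the nucleoside diphosphate kinase gene Nme2 (0.26, adjusted p = 3.51e-04) and the mitochondrial thymidine kinase gene Tk2, which did not pass (0.14, adjusted p = 0.190). At 200 µM against GD 9 of the 20 were higher and 1 lower, beside 32% and 11.4% of all tested genes, and with scaling 7 were higher and 2 lower, beside 22.7% and 24%. Slc29a1 averaged 16 ± 2.35 TPM at 200 µM and 3.03 ± 0.436 TPM in GD (2.08, adjusted p = 1.79e-07).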

How the data were processed

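Gene expression was measured by RNA-seq in 12 libraries of H9c2(2-1) cells, 3 in each of 4 groups. The authors deposited 1 table of TPM for 35966 genes, of which 13647 are listed at 0 in every library. HISAT2 and StringTie are named per the submitters' processing notes. Versions, build, annotation and strandedness were each not given in the sources used here, and the unit TPM was taken from the values, which sum to 946400 to 981390 per library. Depth is unknown, so no counting interval is given.

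The filter kept the 12314 genes that reached 1 TPM in 3 or more libraries. Values were tested as log2(TPM + 1) with limma 3.58.1 in R 4.3.3 (trend, two-sided), in 1 fit over all 12 libraries with a mean per group and no block, and p-values were adjusted by Benjamini and Hochberg over all genes tested. All 6 comparisons between groups were made. The script was tested on simulated data. Tables were built with Python 3.11.15 and pandas 2.3.3.

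The members, lists and tests were chosen with earlier results of these data known. Genes given with every library are those the naming rule picked by role and size of change, and from each list the lowest and highest 2 in GD against control are named. A gene that this rule picked is not reported here. Genes added to these, such as those whose calls changed with a setting, were chosen after their values were seen. Promoters came from RefSeq on GRCr8, by symbol. Alternatives were another pseudocount (0.1), no filter or 5 TPM, median-of-ratios and quantile scaling, no trend, a replicate block, fits of 2 groups, an adjusted p of 0.01, and leaving out each library.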

Additional observations from a re-analysis of the deposited data

How the results depend on the processing

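The counts of falls against control stayed within 1.5 times in the alternatives run. For GD (38) the count was 34 with median-of-ratios scaling, 33 with quantile normalization, 32 with a 5 TPM filter, which tests fewer genes, and 37 at an adjusted p of 0.01. For 100 µM (38) it was 33, 32, 32 and 37 in the same order, and for 200 µM (36) it was 36, 36, 30 and 36. Leaving out 1 library gave 38 lower of 41 for GD, 37 to 38 for 100 µM and 36 to 37 for 200 µM. The counts of genes higher, and those between deprived groups, moved more. For GD against control, the number higher (1) was 3 with median-of-ratios and 4 with quantile scaling, and limma gave 0 (1 at an unadjusted p under 0.05 in the reported fit) with no filter, in a fit of 2 groups and at an adjusted p of 0.01. For 100 µM and for 200 µM against control, it was 3 with median-of-ratios and 4 with quantile scaling. For 100 µM against GD, the number higher (1) was 2 with a 5 TPM filter, 3 with median-of-ratios, 2 with quantile scaling, and 0 in a fit of 2 groups and at 0.01, and the number lower (1) was 6 with median-of-ratios, 7 with quantile scaling, and 0 with no filter, in a fit of 2 groups and at 0.01, while limma gave 4 higher and 7 lower at an unadjusted p under 0.05. For 200 µM against GD, the number higher (10) was 5 with median-of-ratios, 4 with quantile scaling, 6 in a fit of 2 groups and 5 at 0.01, and the number lower (6) was 11, 12, 2 and 1 in the same order. For 200 µM against 100 µM, the number lower (2) was 1 with no filter, 6 with median-of-ratios, 9 with quantile scaling and 1 at 0.01. Leaving out 1 library gave 0 to 1 higher for GD against control, 0 to 2 higher and 0 to 7 lower for 100 µM against GD, 6 to 9 higher and 2 to 6 lower for 200 µM against GD, and 7 to 8 higher and 1 to 2 lower for 200 µM against 100 µM.

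Single genes changed sign under scaling alone. Against control with median-of-ratios and quantile scaling, Pcna was 0.61 and 0.37 in GD, 0.54 and 0.33 at 100 µM and 0.43 and 0.31 at 200 µM. Rfc1 was 0.068 and 0.32 in GD, 0.064 and 0.30 at 100 µM and 0.13 and 0.30 at 200 µM. Rfc4 was 0.62 and 0.64 at 100 µM and 0.52 and 0.56 at 200 µM, and Pold3 was 0.54 and 0.64 at 100 µM and 0.40 and 0.48 at 200 µM. Prim1 in GD was 0.10 and Rpa3 at 100 µM 0.00080 with median-of-ratios, and Fen1 in GD was 0.0056 with quantile scaling. Pcna at 200 µM against GD was -0.18 with median-of-ratios. Both scalings centre the genes by construction, which moves every value against control. The cause of the other changes was not tested.

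Libraries share replicate numbers across groups. With the number as a replicate block, limma gave 0 higher (1 at an unadjusted p under 0.05 without the block) and 38 lower for GD against control, 2 higher and 2 lower for 100 µM against GD, 9 and 6 for 200 µM against GD, 7 and 3 for 200 µM against 100 µM, and 38 and 36 lower for 100 µM and 200 µM against control. Correlations of same-numbered libraries were -0.0939 to 0.212, with 3 of 18 over 0.1. Over the 6 comparisons, a library correlated best with its own number, among 3 candidates, in 9 of 18 cases. This was 3 of 3 for 200 µM against GD and 0 of 3 for 100 µM against control. These values do not settle if the numbers pair the libraries. The labels do not say so, and no block was used in the reported fit.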

Other observations

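Genes that dress new DNA in chromatin were lower in GD than in control in 8 of 9 tested (10 listed), with a median log2 fold change of -1.41, beside 67.6% lower and a median of -0.65 over all tested genes, and 6 were lower and 2 higher when scaled by median of ratios. Asf1b, a histone chaperone of dividing cells, averaged 0.90 ± 0.185 TPM in GD and 36.6 ± 1.95 TPM in control (-4.31, limma adjusted p = 1.28e-11). Uhrf1, which brings the maintenance DNA methyltransferase to the fork, averaged 2.05 ± 0.497 TPM and 28.9 ± 0.348 TPM (-3.31). Asf1a, the paralog of Asf1b, had the highest value and did not pass (0.21, adjusted p = 0.122), and Nasp, another histone chaperone, came next and was lower (-0.41, adjusted p = 0.00165). At 200 µM against GD, 2 of the 9, Nasp and Uhrf1, were lower (-0.59, adjusted p = 3.90e-04, and -0.43, adjusted p = 0.0489) and 0 higher. Over all tested genes 11.4% were lower and 32% higher. With scaling 5 were lower and 0 higher, beside 24% and 22.7%.

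Purine synthesis genes moved in both directions. Of 14 tested genes (15 listed), 7 fell and 4 rose in GD against control, with a median of -0.20, beside 67.6% lower and 14% higher over all tested genes, and with scaling 3 were lower and 10 higher, beside 38.7% and 38%. The IMP dehydrogenase genes, which lead to guanine nucleotides, went apart: Impdh2 rose to 163 ± 0.58 TPM in GD, against 69.6 ± 1.22 TPM in control (1.22, adjusted p = 3.47e-10), while Impdh1 fell to 16 ± 2.17 TPM, against 76.2 ± 3.71 TPM (-2.19, adjusted p = 3.47e-10). Paics, of the purine ring pathway, rose to 136 ± 13.4 TPM in GD, against 62.9 ± 2.45 TPM in control (1.09), and Pfas of the same pathway fell (-1.06). At 200 µM against GD 4 of the 14 were higher and 5 lower, beside 32% and 11.4% of all tested genes. With scaling 3 were higher and 7 lower, beside 22.7% and 24%. Among them, Paics was lower (80.7 ± 3.61 TPM against 136 ± 13.4 TPM, -0.74, adjusted p = 7.91e-06) and Impdh1 higher (28 ± 1.35 TPM against 16 ± 2.17 TPM, 0.78, adjusted p = 3.52e-05).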
